A study of Mus musculus with 72 samples.

Results

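The genes at the distal end of mouse chromosome 11 were followed in chromatin-associated RNA of 5 hybrid mouse embryonic stem cell lines. The set holds every gene of the count files on chromosome 11 whose lowest start lies at or beyond a fixed limit, a round position 92.2 kb before the first start found, except 2 named genes of the interval that the rule leaves out. This gave 285 of the 1698 chromosome 11 genes, and of 22556 genes in all, between a first start at 105092218 and a last end at 121843436 (mm10). The rule uses position alone, and it was set with earlier results of these data known. The comparisons asked from where on chromosome 11 the parental alleles were unequal, in which cells and on which days, and how the RNA of each allele and the total RNA of each gene differed with it.

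All cells derived from 1 female F1 hybrid line of 129/Sv (Mus musculus domesticus, the Dom allele) and CAST/EiJ (Mus musculus castaneus, the Cast allele), so that reads over strain variants can be assigned to a parental chromosome. In iXist-ChrX Dom WT cells a doxycycline-inducible promoter drives Xist on the Dom X chromosome, and in iXist-ChrX Cast WT cells on the Cast X chromosome. A3 is 1 SmcHD1 knockout clone made in the Dom line, and D5 and G6 are 1 SmcHD1 knockout clone each made in the Cast line, so clone and genotype cannot be told apart. Xist was induced with doxycycline while the cells were differentiated towards neural progenitor cells. Libraries were taken at days 2, 3, 5 and 7 in replicate time courses and at days 15, 21 and 35 once per line, with day 52 in Dom WT and A3 alone. The 3 knockout clones also had uninduced embryonic stem (ES) cell libraries. The 2 Dom WT replicates of days 2 to 7 differed in the Cast share of these genes and are given as separate series throughout. Repeat sequencing runs of a replicate were summed, which turned 72 libraries into 65. The late Dom WT and Cast WT libraries carry no replicate number. Since the days of a numbered time course may be 1 culture, p-values measure only the spread between these libraries.

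Autosomal genes are normally transcribed from both parental copies, and an F1 hybrid shows the share of each copy directly. RNA bound to chromatin is rich in nascent transcripts with their introns and so follows transcription more closely than cytoplasmic RNA does. When a stretch of one parental chromosome is present in an extra copy, or is transcribed more, the share of that parent rises in its genes. DNA copy number was not measured here, and the values below are RNA alone. Changes in the share of cells and in the RNA per cell cannot be told apart in these bulk samples.

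Of the 285 members, 185 had at least 10 allelic fragments in over 80% of the libraries of days 2 to 7 with a mean Cast share between 0.1 and 0.9, and these entered the allelic comparisons. The other 100 members fell short of the allelic depth. The filter on total counts passed 230 members, and 3 members had no fragment in any library. Libraries held 9344054 to 56290046 gene-assigned fragments, of which 42030 to 212721 were allelic fragments of the members. The 95% Wilson interval of the members' summed Cast share was at most 0.0091 wide in a library, which covers counting error only. Of the labelled cell types, 6 pluripotency genes summed to 889 to 1285 fragments per 1000000 gene-assigned fragments (RPM) in ES libraries and to 1.30 to 151 RPM at days 15 to 52. The 6 neural precursor genes summed to 26.83 to 61.75 RPM in ES libraries and to 129 to 914 RPM at days 15 to 52. Among them Sox1 was at 0 in every library. At days 2 to 7 the pluripotency genes summed to a median of 435 RPM in Dom WT, 195 RPM in A3 and 215 RPM in Cast WT. The libraries overlapped, at 121 to 823, 67.6 to 590 and 103 to 399 RPM. The 4 neuron genes summed to 721 to 1011 RPM in ES libraries and to 544 to 1048 RPM at days 2 to 7. They do not separate these stages. The part of differentiation state in the total RNA comparisons was not tested. The RNA of Smchd1 itself overlapped between the lines (218 to 594 RPM in A3, 383 to 648 RPM in Dom WT), so it does not check the deletion.

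The promoters of 5 genes that carry the results are shown first. Med1, a subunit of the Mediator complex, and Cdk12, a kinase of the RNA polymerase II tail, are the neighbours between which the parental balance changed. Ddx5, an RNA helicase, was the member with the highest RPM. Sap30bp, a regulator of transcription, shares 266 bases of its promoter window with that of its divergent neighbour Recql5. Timp2, an inhibitor of matrix metalloproteinases, had the largest called rise of total RNA in A3. Each sequence is the RefSeq window (GRCm38.p6) from 250 bases before to 50 bases after the annotated start, written 5′ to 3′ on the strand of the gene. In Med1 and Ddx5 this annotated start is not the 5′ end of the counted gene, which lies at 98193293 and 106788494. Capitals mark 3 motifs on either strand, with no overlap between them in the windows shown. The GC box was searched as GGGCGG and on the opposite strand as CCGCCC. The CCAAT box was searched by these 5 letters and on the opposite strand as ATTGG. The TATA box was searched as TATAAA and on the opposite strand as TTTATA. The windows lie at chr11:98192857-98193156 on the minus strand (Med1), chr11:98203055-98203354 on the plus strand (Cdk12), chr11:106789136-106789435 on the minus strand (Ddx5), chr11:115933409-115933708 on the plus strand (Sap30bp) and chr11:118355362-118355661 on the minus strand (Timp2).
Med1: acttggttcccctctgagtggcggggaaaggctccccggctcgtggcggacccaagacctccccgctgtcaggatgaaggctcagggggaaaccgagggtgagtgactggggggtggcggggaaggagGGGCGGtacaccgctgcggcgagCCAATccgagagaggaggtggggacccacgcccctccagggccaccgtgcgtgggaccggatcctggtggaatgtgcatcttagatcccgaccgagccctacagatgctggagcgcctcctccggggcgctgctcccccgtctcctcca
Cdk12: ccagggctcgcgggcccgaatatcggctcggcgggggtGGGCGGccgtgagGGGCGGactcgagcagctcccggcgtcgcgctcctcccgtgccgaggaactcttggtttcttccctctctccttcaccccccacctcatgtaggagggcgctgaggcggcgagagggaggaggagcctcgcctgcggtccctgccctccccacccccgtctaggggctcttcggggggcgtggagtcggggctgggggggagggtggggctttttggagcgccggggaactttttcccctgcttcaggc
Ddx5: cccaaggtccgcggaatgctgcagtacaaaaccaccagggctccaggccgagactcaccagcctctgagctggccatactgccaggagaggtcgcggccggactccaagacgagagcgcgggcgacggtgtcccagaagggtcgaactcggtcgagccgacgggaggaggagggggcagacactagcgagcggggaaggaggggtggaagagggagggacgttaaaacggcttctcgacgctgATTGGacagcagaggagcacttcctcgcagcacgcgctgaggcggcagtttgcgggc
Sap30bp: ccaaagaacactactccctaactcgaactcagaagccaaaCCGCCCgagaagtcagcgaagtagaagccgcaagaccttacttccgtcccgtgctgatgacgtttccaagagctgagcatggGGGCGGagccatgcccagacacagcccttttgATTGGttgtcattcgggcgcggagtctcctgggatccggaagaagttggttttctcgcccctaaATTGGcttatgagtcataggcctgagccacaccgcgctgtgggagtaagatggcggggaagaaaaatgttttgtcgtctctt
Timp2: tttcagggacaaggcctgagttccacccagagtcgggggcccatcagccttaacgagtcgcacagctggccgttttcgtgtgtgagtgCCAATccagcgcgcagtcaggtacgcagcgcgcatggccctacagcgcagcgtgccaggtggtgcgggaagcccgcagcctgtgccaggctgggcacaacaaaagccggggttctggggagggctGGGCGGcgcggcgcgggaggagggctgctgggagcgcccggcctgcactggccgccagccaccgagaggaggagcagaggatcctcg

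A promoter window was matched by symbol for 202 members, 138 of them past the allelic filter. A GC box on either strand was present in 58.4% of the 202 member windows and in 71.7% of the 138, against 35.9% of all 27025 windows of the table. The CCAAT box was found in 38.6% of member windows against 37.9% of all, and the TATA box in 11.4% against 14.2%. The median number of CpG dinucleotides was 19 in the members' windows, 24 in those past the allelic filter and 7 over all. These matches describe letters in the windows, and the allelic filter itself selects genes with RNA.

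The stretch of raised Cast share began well before the first member. Its start was taken as the single split of 989 position-ordered chromosome 11 genes that left the least weighted squared deviation of the change in log2(Cast/Dom) on either side, a description without a test. In A3 against Dom WT replicate 1 the split fell between Med1 (chromosome 11, 98152154 to 98193293, minus strand) and Cdk12 (98203304 to 98253540, plus strand), with 10010 bp between them. The mean change was 0.09 before the split and 0.71 after it. For Dom WT replicate 2 against replicate 1 the split fell between the same genes, with means of 0.06 and 0.59. Each of the 8 A3 libraries and 4 Dom WT replicate 2 libraries of days 2 to 7 gave this split alone, as did the A3 ES libraries, the late A3 libraries and each of the 4 late Dom WT libraries. From Cdk12 the stretch ran 6.89 Mb to the first member and 23.6 Mb to the end of the last one. In D5 and G6 against Cast WT the split lay elsewhere, with means of 0.02 and -0.02 in D5 and of 0.00 and 0.03 in G6 on either side.

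**Figure D1:**
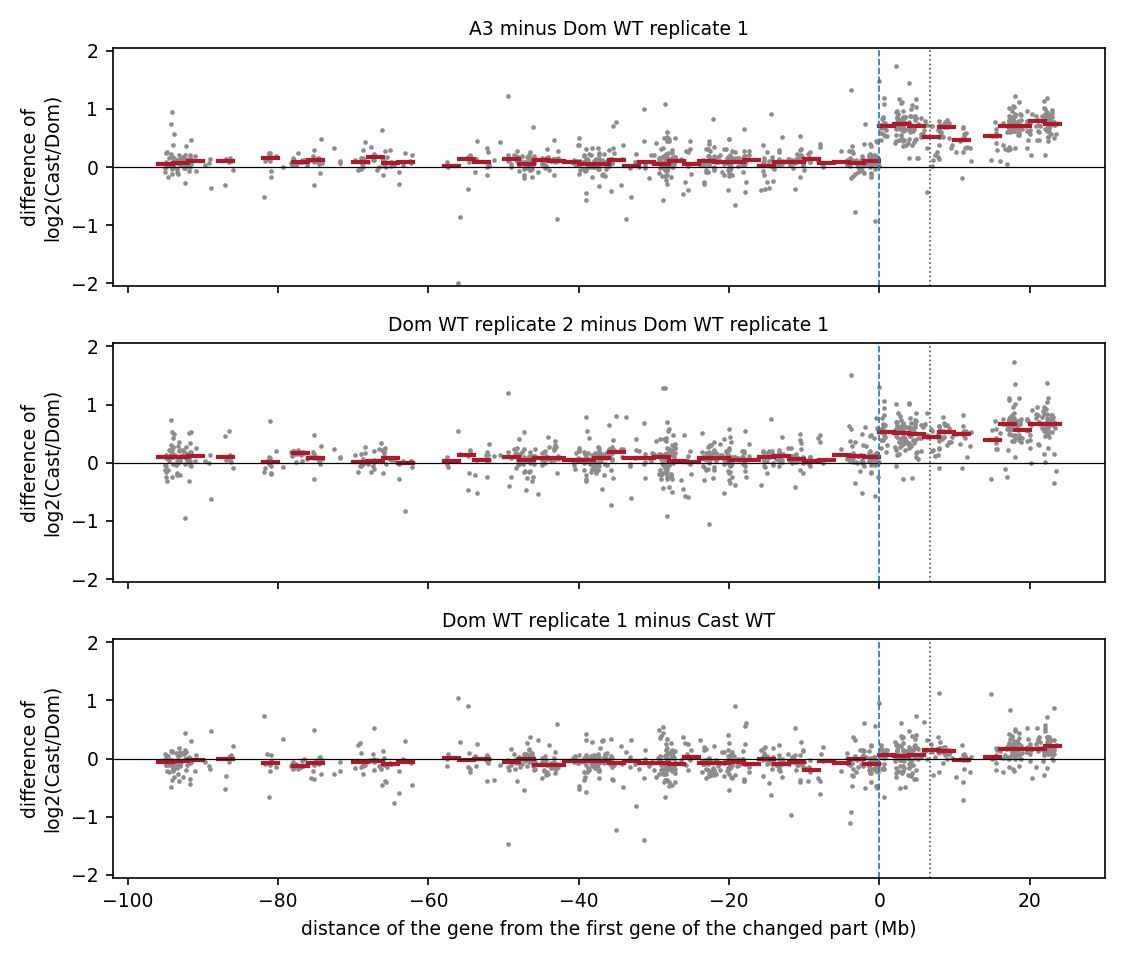
Difference of log2(Cast/Dom) along chromosome 11 by distance in Mb for A3 and Dom WT replicate 2 against Dom WT replicate 1 and for Dom WT replicate 1 against Cast WT, days 2 to 7 summed. Grey points are genes, red bars medians of 2 Mb windows, the dashed line the start of Cdk12 and the dotted line the limit of the set. A3 and Dom WT replicate 2 step from means of 0.09 and 0.06 to 0.71 and 0.59 at the border, and the step lasts to the chromosome end.

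The genes on either side of the border showed the step in neighbouring pairs. On the near side Rpl19 had Cast shares of 0.573, 0.581 and 0.561 in A3, Dom WT replicate 2 and Dom WT replicate 1, Fbxl20 had 0.417, 0.410 and 0.393, and Med1 had 0.457, 0.457 and 0.455. On the far side Stard3 had 0.632, 0.610 and 0.511, and Pgap3 had 0.591, 0.553 and 0.510. Around the limit, where the set begins, most genes were already raised. Cdc27, a subunit of the anaphase-promoting complex, lay before the limit with shares of 0.598, 0.558 and 0.475. Beyond it the methyltransferase gene Mettl2 had 0.634, 0.614 and 0.514, and the kinase gene Tlk2 had 0.619, 0.591 and 0.499. The other nearest genes were thinly covered: Myl4 had 0.432, 0.653 and 0.506, Itgb3 had 0.445, 0.463 and 0.389 and 1700052K11Rik had 0.571, 0.603 and 0.568, from 79, 139 and 111 allelic fragments in Dom WT replicate 1.

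The change of log2(Cast/Dom) of Cdk12 in A3 against Dom WT replicate 1 was above that of each tested member. Its total RNA was 1022 ± 132 RPM (mean ± SD, n = 8 libraries) in A3 and 951 ± 93.5 RPM (n = 4) in Dom WT replicate 2, against 506 ± 47.1 RPM (n = 4) in Dom WT replicate 1 and 348 ± 74.0 RPM (n = 11) in Cast WT. Its mean Cast share was 0.843, 0.827, 0.661 and 0.499 in the same order. Dom-allele fragments of Cdk12 stood at 54.2, 56.4, 54.2 and 53.9 RPM, whereas Cast-allele fragments stood at 291, 269, 104.9 and 53.8 RPM. The change of log2(Cast/Dom) in A3 against Dom WT replicate 1 was 1.46 ± 0.05 (SE; edgeR, adjusted p = 5.92e-25), and Dom WT replicate 1 itself exceeded Cast WT by 0.97 ± 0.05 (adjusted p = 4.86e-21). In Med1 the change in A3 was 0.02 ± 0.05 (adjusted p = 0.985). With Cdk12 left out, the split still followed Med1, and the next gene was Stard3, which starts at 98358367.

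Summed over the 185 members, the Cast share set A3 and Dom WT replicate 2 apart from Dom WT replicate 1, and Dom WT replicate 1 apart from the Cast lines, without overlap at days 2 to 7. In Dom WT replicate 1 it was 0.513, 0.504, 0.506 and 0.508 at days 2, 3, 5 and 7. Dom WT replicate 2 gave 0.622, 0.616, 0.597 and 0.589 on those days. A3 replicate 1 gave 0.634, 0.623, 0.610 and 0.609, and A3 replicate 2 gave 0.632, 0.624, 0.617 and 0.616. The A3 libraries and those of Dom WT replicate 2 overlap, and both lie above Dom WT replicate 1 on every day. In Cast WT (11 libraries) the share was 0.481 ± 0.00426, in D5 (8 libraries) 0.480 ± 0.00343 and in G6 (8 libraries) 0.484 ± 0.00225, and the highest of these 27 libraries, at 0.487, lay below each library of Dom WT replicate 1. On chromosome 11 below 95 Mb the share was 0.461 ± 0.00125 in Dom WT replicate 1, 0.472 ± 0.00274 in replicate 2, 0.477 ± 0.00205 in A3 and 0.472 ± 0.00442 in Cast WT.

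**Figure D2:**
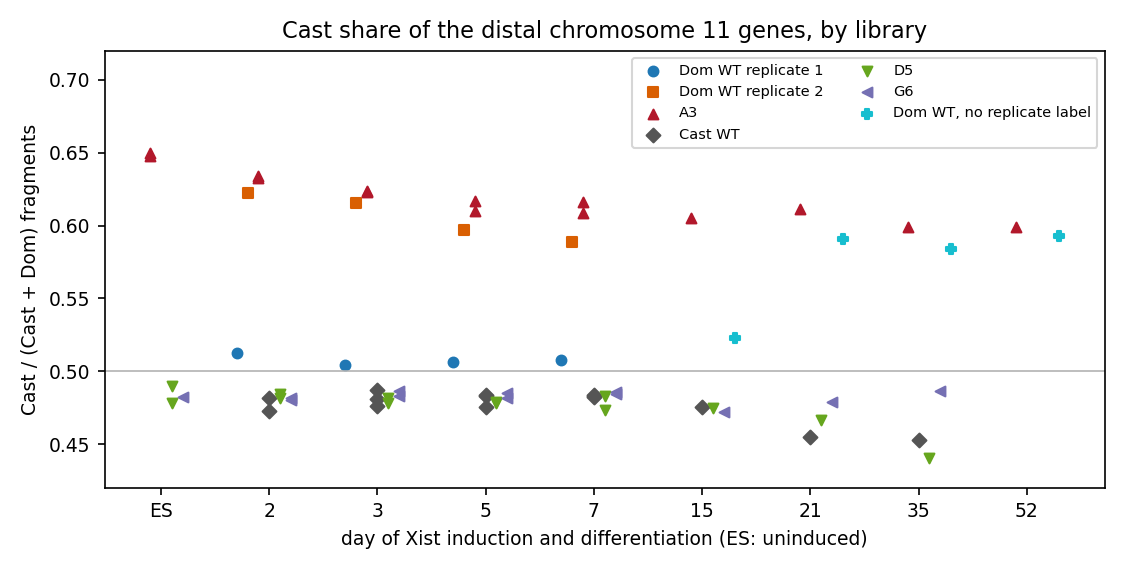
Cast share, Cast/(Cast + Dom) fragments, of the 185 members past the allelic filter in each library against day (1 point per library). At days 2 to 7 Dom WT replicate 2 (0.589 to 0.622) and A3 (0.609 to 0.634) lie above Dom WT replicate 1 (0.504 to 0.513), which lies above Cast WT, D5 and G6.

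In A3 the share stood highest before induction. The 2 ES libraries gave 0.650 and 0.648, and days 15, 21, 35 and 52 gave 0.606, 0.611, 0.599 and 0.599. Against Cast WT of the same day, the Cast/Dom ratio of A3 was 1.89-fold at day 2 and 1.69-fold at day 7. That of Dom WT replicate 2 was 1.80-fold and 1.53-fold, and that of Dom WT replicate 1 was 1.15-fold and 1.10-fold. The late Dom WT libraries had 0.523 at day 15 and 0.591, 0.584 and 0.593 at days 21, 35 and 52. The day 15 library lay between the ranges of Dom WT replicate 1 and replicate 2, and the other 3 lay near or within that of replicate 2. Late Cast WT libraries had 0.476, 0.455 and 0.453 at days 15, 21 and 35.

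Tested gene by gene, the Cast share rose in most members. In A3 against Dom WT replicate 1, 131 of the 185 tested members (70.8%) were higher and 0 were lower at an adjusted p under 0.05 (edgeR quasi-likelihood test on allelic counts, Benjamini-Hochberg over 12482 genes), where 2.42% of all tested genes were higher. The median change of log2(Cast/Dom) was 0.69 over the members and 0.02 over all genes, and 184 members were above 0. In Dom WT replicate 2 against replicate 1, 113 members (61.1%) were higher and 0 were lower, where 2.48% of all tested genes were higher, with a median of 0.62. Both comparisons use the same Dom WT replicate 1 libraries. The 2 Dom WT replicates were separated because this Cast share differed between them. The second count therefore describes that difference and is no independent support for it. In the first of them the interquartile range over members was 0.54 to 0.78. A log2 change of 0.585 is a 1.5-fold change of the Cast/Dom ratio.

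The number of called members varied by RNA level, which was not tested. Of the 61 members with the lowest RPM (0.769 to 10.7), 21 were higher in A3. Of the 62 in the middle (10.9 to 34.8 RPM) 52 were higher, and of the 62 with the highest RPM (36.2 to 703) 58 were. The median changes of these groups were 0.65, 0.68 and 0.72, and their median standard errors 0.23, 0.13 and 0.07. Single members are named here after their values were seen. The lowest change belonged to Rgs9, a regulator of G protein signalling, at -0.20 ± 0.19 (adjusted p = 0.865). Its Cast share was 0.567 ± 0.0422 in A3, 0.592 ± 0.0480 in Dom WT replicate 2 and 0.599 ± 0.0465 in replicate 1, and these overlap. The highest belonged to Ten1, a subunit of the telomeric CST complex, at 1.24 ± 0.17 (adjusted p = 1.34e-06). Ten1 had a share of 0.698 ± 0.0493 in A3, 0.716 ± 0.0372 in Dom WT replicate 2 and 0.494 ± 0.0390 in replicate 1, whose highest library (0.528) lay below every A3 and replicate 2 library.

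The median change also varied by position, which was not tested. By 2 Mb window, Dom WT replicate 2 stood at 0.50 to 0.51 from 98 to 104 Mb, at 0.38 to 0.49 from 104 to 114 Mb and at 0.65 to 0.67 from 114 to 122 Mb. A3 stood at 0.68 to 0.74, 0.22 to 0.65 and 0.69 to 0.76 in these 3 intervals, the lowest value coming from a window of 2 genes. Dom WT replicate 1 against Cast WT stood at 0.04 to 0.06, -0.10 to 0.14 and 0.16 to 0.20.

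The alleles of the members moved differently. In A3 against Dom WT replicate 1, the median log2 ratio of mean RPM was 0.58 (1.49-fold) for Cast-allele fragments, with 181 of 185 members above 0, and -0.11 for Dom-allele fragments, with 56 above 0. Over 642 genes of chromosome 11 below 95 Mb these medians were -0.04 and -0.13. In Dom WT replicate 2 against replicate 1 the members' Cast allele was at 0.56 (1.47-fold) and the Dom allele at -0.06. Over all fragments the members' medians were 0.29 (1.22-fold) in A3 and 0.30 (1.24-fold) in Dom WT replicate 2. Against Cast WT, the Cast allele of the members stood at 1.93-fold in A3 and 1.98-fold in Dom WT replicate 2, the Dom allele at 1.07-fold and 1.12-fold, and all fragments at 1.47-fold and 1.52-fold. The Cast allele of 8485 genes on other autosomes stood at 1.05-fold and 1.06-fold.

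**Figure D3:**
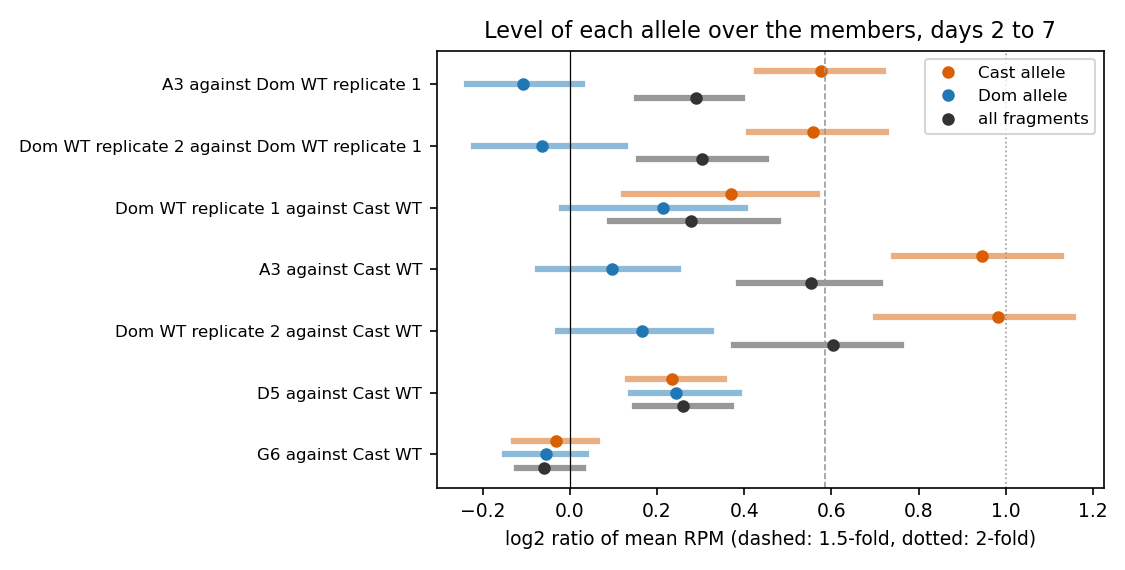
Log2 ratio of mean RPM of Cast-allele, Dom-allele and all fragments over the 185 members at days 2 to 7 for each pair of series, with medians and quartiles. In A3 and Dom WT replicate 2 against Dom WT replicate 1 the Cast allele lies at 0.58 and 0.56 and the Dom allele at -0.11 and -0.06.

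Against Dom WT replicate 1, Ddx5 passed the test in allele balance and not in total RNA. Its Cast share was 0.536, 0.543, 0.522 and 0.544 at days 2, 3, 5 and 7 in Dom WT replicate 1 and 0.670, 0.635, 0.656 and 0.642 in replicate 2. The 8 A3 libraries ran from 0.651 over a median of 0.657 to 0.671, so the replicate 1 libraries lay below all others. The change in A3 was 0.74 ± 0.04 (adjusted p = 6.59e-19). Total Ddx5 RNA was 769.7, 796, 837 and 726 RPM in Dom WT replicate 1, 789, 786, 813 and 709 RPM in replicate 2 and 755 to 1105 RPM in A3. These groups overlap, and the total changes of 0.22 in A3 (adjusted p = 0.200) and -0.02 in replicate 2 (adjusted p = 0.929) did not pass the test. Set against Cast WT, total Ddx5 RNA was higher in A3 (0.49; edgeR, adjusted p = 9.6e-08) and in Dom WT replicate 1 (0.26, adjusted p = 0.0118). The promoter windows of Ddx5 and its divergent neighbour Cep95 share 166 bases, the Ddx5 window lying wholly upstream of the counted gene.

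Rptor, the mTORC1 subunit that binds substrates, moved in both measures. Its Cast share was 0.512, 0.485, 0.513 and 0.518 in Dom WT replicate 1 and 0.624, 0.619, 0.608 and 0.629 in replicate 2 at days 2, 3, 5 and 7. In A3 it ranged from 0.614 over a median of 0.628 to 0.634. Total Rptor RNA was 316, 318, 311 and 379.8 RPM in Dom WT replicate 1 and 489, 491, 479.8 and 513 RPM in replicate 2. In A3 it lay between 382 and 525 RPM, above every replicate 1 library. The total change was 0.51 (adjusted p = 0.0409) in A3 and 0.56 (adjusted p = 0.0355) in replicate 2. Cast-allele fragments stood at 98.4 RPM in Dom WT replicate 1, 179.8 in replicate 2 and 168 in A3, and Dom-allele fragments at 95.6, 110.2 and 101 RPM.

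Bptf, the largest subunit of the NURF chromatin remodeller, had a lower Cast share at later days in both Dom WT replicates. Dom WT replicate 1 had 0.560, 0.544, 0.520 and 0.513 at days 2, 3, 5 and 7, and replicate 2 had 0.683, 0.663, 0.637 and 0.598. The A3 libraries ran from 0.628 to 0.689, above all replicate 1 libraries. Total Bptf RNA was 455 ± 58.7 RPM in Dom WT replicate 1, 627 ± 64.2 RPM in replicate 2 and 562 ± 96.3 RPM in A3. The replicate 2 change of 0.45 passed the test (adjusted p = 0.0241), and that of A3 at 0.34 did not (adjusted p = 0.0730).

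**Figure D4:**
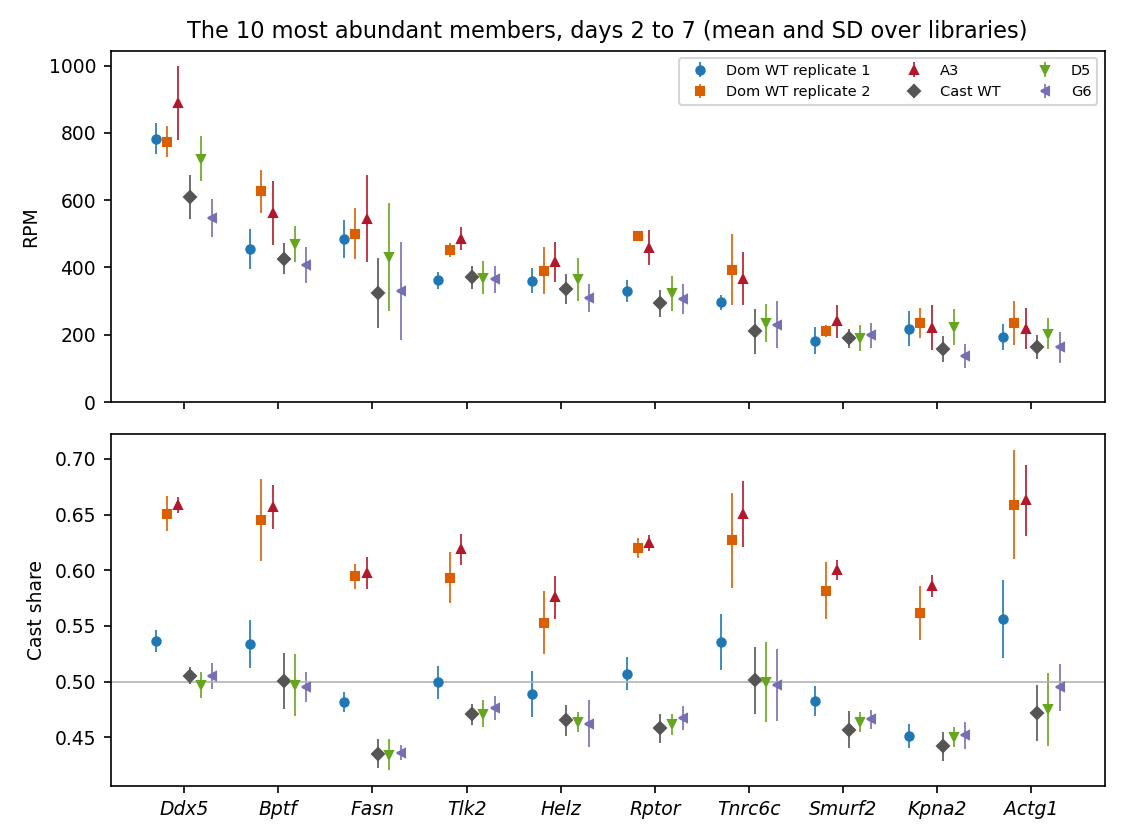
Total RNA in RPM and Cast share of the 10 members with the highest mean RPM, days 2 to 7, for each series with the mean and SD over its libraries. Cast shares of Ddx5 (0.659 in A3, 0.536 in Dom WT replicate 1) and Rptor (0.625 and 0.507) separate the series, while the total RNA of Ddx5 overlaps.

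Total RNA was higher in fewer members than the Cast share was. In A3 against Dom WT replicate 1, 27 of 230 tested members (11.7%) were higher and 0 were lower, where 0.858% of 15974 genes were higher. The median log2 change was 0.30 over the members and 0.01 over all genes. In Dom WT replicate 2 against replicate 1, 21 members (9.13%) were higher and 0 lower, where 1.28% of all genes were higher, with a median of 0.29. In a fit of A3 and Dom WT replicate 1 alone the A3 count was 1 member, with a median of 0.31, and with A3 replicate 2 alone it was 10. Without 1 of the Dom WT replicate 1 libraries of days 2, 3 and 5 or the A3 day 5 replicate 1 library, the A3 count was 6 to 14, while the median stayed between 0.28 and 0.34. For Dom WT replicate 2 the count was 34 in a fit of both Dom WT replicates alone and 4 to 17 without any 1 library. Of the 131 members with a higher Cast share in A3, 24 were also higher in total RNA, and 126 had a total change above 0 with a median of 0.33.

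Srp68, a protein of the signal recognition particle, was called in both comparisons. Its total RNA was 47.8 ± 5.85 RPM in Dom WT replicate 1, 62.9 ± 2.80 RPM in replicate 2 and 62.5 ± 6.83 RPM in A3, where the change was 0.43 ± 0.07 (adjusted p = 0.00109). Srp68 is named after its value was seen. Recql5, a DNA helicase, had 49.8, 55.0, 48.7 and 50.5 RPM in Dom WT replicate 1 and 82.4, 84.3, 73.0 and 66.1 RPM in replicate 2 at days 2, 3, 5 and 7. In A3 it ranged from 55.5 to 79.7 RPM, above every replicate 1 library (adjusted p = 0.00404 in A3 and 0.000556 in replicate 2). Its divergent neighbour Sap30bp, shown above with the shared promoter window, stood at 40.7 ± 5.04, 54.9 ± 8.01 and 53.0 ± 6.46 RPM in Dom WT replicate 1, replicate 2 and A3. The Sap30bp change passed the test in A3 (0.43, adjusted p = 0.0320) and missed it in replicate 2 (0.42, adjusted p = 0.0573).

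The 5 largest called rises of total RNA in A3 were those of Timp2 (1.03), Metrnl, a secreted factor of muscle and fat (0.86), Tanc2, a synaptic scaffold protein (0.80), St6galnac2, a sialyltransferase (0.66), and Sept9, a septin of the cytoskeleton (0.63). Their change of log2(Cast/Dom) was 0.69 for Timp2 (adjusted p = 0.00149) and 0.65 for Sept9 (adjusted p = 4.19e-10). It did not pass the test for Metrnl (0.53, adjusted p = 0.594), St6galnac2 (0.56, adjusted p = 0.183) or Tanc2 (0.26, adjusted p = 0.154). Timp2 RNA was 6.28, 6.39, 13.4 and 19.8 RPM at days 2, 3, 5 and 7 in Dom WT replicate 1 and 11.3, 12.0, 21.8 and 19.9 RPM in replicate 2. The A3 libraries ran from 10.7 to 34.1 RPM and overlap those of replicate 1. Tanc2 RNA was 156 ± 43.4 RPM in A3 and 92.6 ± 25.9 RPM in Dom WT replicate 1, with Cast shares of 0.533 ± 0.0509 and 0.487 ± 0.0166. Against Cast WT, the total RNA of Timp2 (0.36, adjusted p = 0.0685), Metrnl (-0.14, adjusted p = 0.543) and Tanc2 (-0.03, adjusted p = 0.908) did not pass the test in A3, and all 3 were lower in Dom WT replicate 1 than in Cast WT (-0.67 for Timp2, adjusted p = 0.0119, and -0.83 for Tanc2, adjusted p = 0.00133; adjusted p = 0.000468 for Metrnl).

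Grouped by role and set against Dom WT replicate 1, most tested members of each housekeeping group had a higher Cast share. The exception was the mitochondrial genes in Dom WT replicate 2. Few members of these groups were called in total RNA against Dom WT replicate 1, and more were called against Cast WT, as given below. Counts for A3 and for Dom WT replicate 2, each against Dom WT replicate 1, are given in this order. Over all tested members 70.8% and 61.1% were higher in Cast share and 11.7% and 9.13% in total RNA. Over all tested genes these were 2.42% and 2.48%, and 0.858% and 1.28%. The groups were not tested against these shares. Of 8 chromatin genes 8 and 6 were higher in Cast share, with medians of 0.76 and 0.66, and 2 and 3 in total RNA. Foxk2, a forkhead factor, had 149.7 ± 17.6 RPM in Dom WT replicate 1, 201 ± 14.4 RPM in replicate 2 and 188 ± 19.1 RPM in A3, and was called in both (adjusted p = 0.0257 and 0.0225). H3f3b, which encodes the replacement histone H3.3, changed by 0.84 in log2(Cast/Dom) in A3 (adjusted p = 1.64e-09), and its total change was 0.30 (adjusted p = 0.494). H3f3b and the actin gene Actg1 have near-identical copies elsewhere in the genome, so that their uniquely placed fragments are less certain than those of other members.

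Of 10 RNA processing genes, 8 and 9 were higher in Cast share (medians 0.68 and 0.55) and 2 and 0 in total RNA. Eif4a3, a core protein of the exon junction complex, changed by 0.80 in log2(Cast/Dom) in A3 (adjusted p = 5.80e-11) and the helicase Ddx42 by 0.62 (adjusted p = 2.44e-08). Of 10 ubiquitin, SUMO and proteasome genes, 10 and 9 were higher in Cast share (medians 0.71 and 0.63) and 3 and 0 in total RNA. Nploc4, a cofactor of the segregase p97, changed by 0.84 in log2(Cast/Dom) (adjusted p = 3.80e-17) and by 0.45 in total RNA (adjusted p = 0.0199) in A3. Rnf213 of this list was not analysed here.

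Cell division genes were higher in Cast share in 6 and 6 of 7 cases (medians 0.74 and 0.62) and in 0 and 0 in total RNA. Birc5, the chromosomal passenger protein survivin, changed by 0.79 in log2(Cast/Dom) (adjusted p = 4.05e-09) and by 0.21 in total RNA (adjusted p = 0.360) in A3. Kpna2, an importin, changed by 0.78 (adjusted p = 3.80e-17) and by 0.05 (adjusted p = 0.902). Set against Cast WT, total RNA in A3 was higher for Birc5 (0.61; edgeR, adjusted p = 2.6e-08) and Kpna2 (0.41, adjusted p = 4.6e-05). Dom WT replicate 1 was above Cast WT as well (0.41, adjusted p = 0.00106, and 0.37, adjusted p = 0.00344). Among 10 kinase and signalling genes, 7 and 7 were higher in Cast share (medians 0.59 and 0.60) and 2 and 2 in total RNA. Mafg, a small MAF transcription factor, was called in total RNA in both, at 0.46 (adjusted p = 0.0218) and 0.50 (adjusted p = 0.0241).

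Of 9 tested metabolic and lysosomal genes, 7 and 6 were higher in Cast share, and of 10 tested in total RNA 0 and 1 were higher. Galk1, the galactokinase, had a Cast share of 0.716 ± 0.0191 in A3 and 0.546 ± 0.0351 in Dom WT replicate 1. Fasn, the fatty acid synthase, had 0.597 ± 0.0142 and 0.481 ± 0.00913, with total RNA of 545 ± 129.5 and 484 ± 56.8 RPM, which overlap. Of 7 tested mitochondrial genes, 5 and 3 were higher in Cast share, and of 8 in total RNA 0 and 0 were.

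Small groups and groups of low RNA gave fewer calls. Cbx2, which encodes a chromodomain protein of the Polycomb repressive complex, changed by 0.85 in log2(Cast/Dom) in A3 (adjusted p = 6.17e-05) and by 0.81 in Dom WT replicate 2 (adjusted p = 0.00281). Its total RNA passed the test in neither of these comparisons (0.37, adjusted p = 0.563, and -0.23, adjusted p = 0.710). Set against Cast WT, it was higher in A3 (0.95; edgeR, adjusted p = 7.85e-05). Of the 5 Wnt pathway genes, 4 were tested for Cast share, with 3 and 2 higher. Csnk1d, casein kinase 1 delta, was called in total RNA in A3 at 0.41 ± 0.07 (adjusted p = 0.00124), with 122 ± 18.1 RPM in Dom WT replicate 1 and 158 ± 20.7 RPM in A3. Axin2, a feedback inhibitor of Wnt signalling, changed by 0.45 in log2(Cast/Dom) in A3 (adjusted p = 0.0109) and missed the test in total RNA (0.58, adjusted p = 0.320). Its total RNA in A3 was higher than in Cast WT (1.02; edgeR, adjusted p = 9.3e-05). Of 15 neural and synaptic genes 8 were tested for Cast share, with 2 and 2 higher (medians 0.43 and 0.44), and 12 for total RNA, with 2 and 1 higher. Of 8 blood and vessel genes 2 were tested for Cast share, with 0 and 1 higher, and 3 for total RNA, with 0 and 0 higher.

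Against Cast WT, Dom WT replicate 1 showed a smaller difference of the same sign. Of the 185 members, 32 (17.3%) were higher in Cast share and 0 lower, where 10.9% of all tested genes were higher, with a median of 0.16 over the members and 0.00 over all genes. In a fit of these series alone, leaving out single libraries gave 17 to 27 members. In total RNA 51 of 230 members (22.2%) were higher and 5 lower, where 9.9% and 11.5% of all genes were. Without the day 5 library of Dom WT replicate 1 the higher count was 28. The median Cast allele of the members stood 0.37 above Cast WT and the Dom allele 0.21, where chromosome 11 below 95 Mb gave 0.14 and 0.20. The split of chromosome 11 again fell between Med1 and Cdk12, with means of -0.06 before and 0.15 after. Actg1, gamma actin, had a Cast share of 0.556 ± 0.0353 in Dom WT replicate 1 and 0.472 ± 0.0251 in Cast WT (0.46, adjusted p = 2.30e-08).

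A3 and Dom WT replicate 2 were set against Cast WT as well. The allelic comparisons of these series and of D5 and G6 with Cast WT were added after the data had been seen. In Cast share, 166 members (89.7%) were higher in A3 and 150 (81.1%) in Dom WT replicate 2, and 0 lower in either, where 14.1% and 13.6% of all tested genes were higher. The medians were 0.88 and 0.77. In total RNA, 144 of 230 members (62.6%) were higher in A3 and 1 was lower, where 13.6% and 12.6% of all genes were, and 127 (55.2%) were higher in Dom WT replicate 2 and 0 lower, where 11.8% of all genes were higher. The medians were 0.49 and 0.50, and all genes gave -0.01 in both. By role, total RNA was higher in A3 in 8 of 8 chromatin, 9 of 10 RNA processing and 7 of 7 cell division genes. So were 9 of 10 ubiquitin, SUMO and proteasome, 7 of 10 kinase and signalling and 5 of 5 Wnt pathway genes. Of 8 mitochondrial genes 5 were higher, of 10 metabolic and lysosomal genes 5, and of 12 neural and synaptic genes 7. In each of these groups 0 were lower. The member lower in A3 was Abca8b, an ABC transporter, at -0.84 ± 0.21 (adjusted p = 0.00319), named after its value was seen. These comparisons and that of Dom WT replicate 1 share the Cast WT libraries.

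D5 and G6 did not show the raised Cast share. Against Cast WT, 0 of 185 members were called in allele balance by edgeR, where 2.11% of all tested genes were called in either direction. At an unadjusted p under 0.05 there were 10 members, and the median was 0.00. In total RNA 0 of 230 members were called by edgeR and 0 by DESeq2, where 1.16% of all genes were called by edgeR, with 9 members at an unadjusted p under 0.05 and a median of 0.07. With these lines fitted alone 1 member was higher in total RNA, and with the replicate number as a block as well 8 were. The clones differed in level: the median log2 ratio of all fragments over the members was 0.26 in D5 and -0.06 in G6, beside 0.23 and -0.07 on chromosome 11 below 95 Mb. In D5 the members' Cast and Dom alleles stood at 0.24 and 0.24, where other autosomes gave 0.07 and 0.06.

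At days 15 to 52 few members differed between A3 and Dom WT. Of 180 tested members 3 were higher in Cast share in A3 and 0 lower, where 0.217% of 11984 genes were higher, with a median of 0.21. They were Gna13, the G protein subunit alpha 13, D11Wsu47e and Cyth1, an ARF exchange factor, the last 2 named after their values were seen. Gna13 had a Cast share of 0.469, 0.512, 0.484 and 0.515 in Dom WT and 0.566, 0.573, 0.539 and 0.596 in A3 at days 15, 21, 35 and 52 (0.43 ± 0.08, adjusted p = 0.0158). Cyth1 had 0.463, 0.526, 0.528 and 0.501 in Dom WT and 0.594, 0.594, 0.599 and 0.605 in A3 (adjusted p = 0.0365). In both genes the groups do not overlap. Without the A3 library of day 21 the count was 0, without that of day 15 or 35 it was 1, and with limma on the share it was 0. Without the Dom WT library of day 15 the count was 2 and the median 0.08, against 0.17 to 0.26 without any other single library. In total RNA 0 of 228 members were called by edgeR, where 0% of 15308 genes were called, with 17 members at an unadjusted p under 0.05 and 0 called by DESeq2. The summed level of 6 feeder fibroblast genes was 385 to 8083 RPM in late Dom WT and 767 to 10150 RPM in late A3 libraries, against 7.64 to 63.1 RPM and 9.87 to 61.2 RPM at days 2 to 7, with none of the 6 at 0. Their part in the late values was not tested.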

How the data were processed

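Chromatin-associated RNA was sequenced in paired-end, strand-specific libraries of 5 hybrid lines. The authors removed ribosomal reads with Bowtie2 2.3.2, aligned the remaining reads with STAR 2.4.2a against mm10 in which parental variant positions were masked, split unique reads by parental variants with SNPsplit, and deposited per-gene fragment counts over whole transcripts (featureCounts 1.5.2) for all, Cast (genome 1) and Dom (genome 2) reads. Deposited tables of ratios were not used. These counts were read here in pandas 2.3.3. Total counts were tested with the quasi-likelihood test of edgeR 4.0.16 (TMM, filterByExpr, 1 fit over the 6 series of days 2 to 7 with day as covariate, 1 over the late libraries), and allelic counts with edgeR on Cast and Dom columns per library with the library and the allele by day as terms, requiring at least 10 allelic fragments in over 80% of libraries. The SE is the log2 change divided by the root of F. The adjusted p is Benjamini-Hochberg over all tested genes. DESeq2 1.42.0 and limma 3.58.1 served as alternatives. Depth was 9344054 to 56290046 fragments per library. RPM is fragments per 1000000 gene-assigned fragments. On simulated counts for A3 against Dom WT replicate 1, the total test recovered 80% of 100 genes changed by 1.5-fold over 15552 genes. The allelic test, in a fit of these arms alone, recovered 72.7% of 99 over 12124 genes. The simulated libraries were independent, with a fixed spread and no day effect, and the changed genes averaged at least 100 fragments. The members' median total change in A3 was smaller, at 1.22-fold, so this recovery does not apply to it.

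Named genes were the 3 tested genes on each side of the border and of the start of the set, the 10 members with the highest mean RPM, the 5 with the largest called rise and fall of total RNA in A3 (no member fell), and lists of genes by role, of which a listed gene is not reported here. Members and lists were chosen with earlier results of these data known. Alternatives were another normalisation, filter, tool or library set, each library left out in turn, and the replicate number as a block.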

Additional observations from a re-analysis of the deposited data

Results flagged for a closer look

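In 6 of 64 groups of 4 to 10 libraries, 1 library stood apart from the others by Dixon's criterion, which chance alone gives in about 1 group in 20. The members' Cast share in the Dom WT library of day 15 was 0.523, where the other late Dom WT libraries had 0.584 to 0.593. The summed RNA of the members in that library was 9387 RPM, where the others had 10460 to 10660 RPM.

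At days 2 to 7 the members summed to 10470 RPM in D5 day 2 replicate 2, where the other D5 libraries had 8575 to 9400 RPM. In G6 day 2 replicate 2 they summed to 9571 RPM, where the other G6 libraries had 7334 to 8102 RPM. The Cast share of Ddx5 was 0.522 in D5 day 2 replicate 2, against 0.482 to 0.499 in the other D5 libraries. Fasn RNA was 641 RPM in G6 day 2 replicate 2, against 202 to 383 RPM in the other G6 libraries.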

How the results depend on the processing

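Under other settings 205 counts and border positions kept the reported result and 29 did not. A count kept it within 1.5 times the reported value, a count of 0 by staying 0, and a border by the same first gene. No count reversed, and no named member that passed the threshold in either setting changed direction. Among values of named members, 2170 stayed on the same side of the threshold, 36 newly passed it and 69 no longer did. A change of direction among values that passed in neither setting was not counted. Total RNA calls depended most on the libraries. For A3 against Dom WT replicate 1 the 27 members became 1 in a fit of these arms alone, 10 with A3 replicate 2 alone and 6 to 28 without single libraries (6 without Dom WT replicate 1 of day 2 or day 3). For Dom WT replicate 2 against replicate 1 the 21 became 34 in a fit of these arms alone and 4 to 17 without single libraries (4 without replicate 2 of day 3). For Dom WT replicate 1 against Cast WT the 51 became 28 to 63, and the 32 in Cast share became 17 to 27. The late 3 members in Cast share became 0 with limma, 5 at 30 allelic fragments and 0 to 3 without single libraries. With Cdk12 left out, the split still followed Med1 in A3 and in Dom WT replicate 2, with Stard3 at 98358367 as the next gene. The late median of total RNA turned from 0.12 to -0.02 with library totals. The cause of these shifts was not tested.

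For total RNA in D5 and G6 against Cast WT the count of 0 became 1 in a fit of these arms alone and 8 with the replicate block. Same-numbered libraries of these lines correlated above 0.1 in 18 of 24 pairs (from -0.616 to 0.821), which misses the requirement that every pair do so. All 8 pairs of D5 with G6 were above it (0.406 to 0.821), but with 2 replicates a day both pairs of a day give the same value. The same holds for Cast WT with either clone at day 2, so the pairs are not independent. The 6 that were not above it were Cast WT replicate 2 with either clone at days 3, 5 and 7. Same-numbered libraries of Dom WT and A3 correlated negatively in every pair (-0.742 to -0.464), and here too both pairs of a day give the same value. No paired analysis of A3 against Dom WT was possible because the 2 Dom WT replicates were separate arms.

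Counting limits single members: the widest 95% Wilson interval of a library's Cast share was 0.0363 for Ddx5 and 0.259 for Rgs9.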
